A study of Rattus norvegicus with 10 samples.

Results

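On chromosome 15 of the rat, captured methylated DNA was lower in rats with a history of status epilepticus (SE) over most of chr15:58717294-103570244, a stretch of 44.9 Mb in the genome build RN4. Its members were all regions of a methyl-capture count table that start at or after the first of these positions and end at or before the last. They numbered 7382 of 574544 regions in the table and of 22058 on the chromosome. The stretch was chosen from measured values. Each end is the start of a region with more tags in SE than in control rats at an unadjusted p below 0.01, and no tested region between them passed that threshold in that direction. The comparison of SE with control rats therefore selected the stretch, and its values inside it are given as a description, without a test. The region at the lower end, chr15:58717294-58718060, is itself a member, and the region at the upper end is not.

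Male Sprague-Dawley rats had a bipolar electrode placed in the left lateral nucleus of the amygdala. In SE rats it delivered pulses for 30 min, and for a further 10 min where SE had not begun, and diazepam then ended the SE. Age-matched sham-operated control rats had the electrodes but no stimulation, so that SE and diazepam came together in 1 group. The stimulated rats were watched by video EEG for the last 2 weeks, and by the study's methods all those enrolled had spontaneous seizures. DNA came from CA3 and dentate gyrus of the left hippocampus 3 months after SE, with 1 library per rat, and the source labels call the tissue dorsal hippocampus. The labels list 5 control rats (1 to 5) and 5 SE rats (6 to 10) and carry the word discarded for control rat 2 and SE rat 7. Values below use the other 4 rats of each group unless all 10 libraries are named. Their libraries held 5499370 to 7179519 tags in the regions of the table.

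Methyl-capture pulls down fragments through a protein domain that binds methylated CpG sites. The tag count of a region therefore reports how much of its DNA was captured, which is not the methylation level of single cytosines. CpG sites are spread unevenly along mammalian chromosomes, and tracts with few of them yield few captured fragments. Brain DNA also carries hydroxymethylated cytosines, which such domains bind poorly. The tissue held many cell types, so a change in cell makeup and a change of methylation within cells cannot be told apart. The table gives positions without gene names and no annotation of RN4 was used here, so the tissue was not checked against marker genes and the genes, exons and promoters of the stretch were not analysed.

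The stretch held fewer regions than the part of chromosome 15 before it. There were 165 regions of the table per Mb inside it, against 220 per Mb in the 12907 regions below it and 286 per Mb in the 1769 regions beyond it. The median gap between neighbouring regions was 2513 bp in the stretch and 1676 bp below it. Local region density, the count of other regions up to 50 kb away in either direction, had a median of 23 over the tested members, 31 below the stretch, 38 beyond it and 33 over all tested regions. The regions themselves were of similar size, with a median length of 445 bp in the stretch and 455 bp below it. A region was tested when its tags summed over the 8 libraries reached the 50th percentile of the table, 70 tags. That held for 3397 members (46.0%), 6530 regions below the stretch (50.6%) and 50.8% of all regions. A tested member held a median of 11.6 tags per library, against 11.9 below the stretch and 12.1 over all tested regions.

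The tag density of the tested members, in tags per kb of region, was set beside that of chromosome 15 below the stretch in the same library. The difference in log2 tags per kb, stretch minus the part below it, was -0.029, 0.056, 0.17 and 0.17 in control rats 1, 3, 4 and 5. In SE rats 6, 8, 9 and 10 it was -0.075, -0.077, -0.12 and -0.16. Every SE rat lay below every control rat. The mean over the 8 libraries (-0.0087 ± 0.13, SD, n = 8) therefore pools 2 groups that lay apart, and whose comparison chose the stretch, and no test of it is given.

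The normalized counts of the tested members (CPM) were summed per library. CPM are counts scaled, after trimmed-mean normalization, to the library's tags in all tested regions. In control rats 1, 3, 4 and 5 the sums were 10016, 10823, 11674 and 11532 CPM. In SE rats 6, 8, 9 and 10 they were 9753, 9750, 9523 and 9224 CPM. Every SE rat lay below every control rat, with control rat 1 nearest to the SE rats. The means were 11011 ± 761 in control and 9562 ± 250 CPM in SE rats (SD, n = 4 each), so the SE mean was 13.2% lower, a log2 ratio of -0.20. On chromosome 15 below the stretch the sums were 20779 ± 176 and 20793 ± 94.4 CPM, and the groups overlapped.

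The 3985 members under the filter took no part in the calls that fixed the ends of the stretch. They lie between the same ends and came from the same libraries, so their like difference is no separate support. Their summed CPM was 5428, 5858, 6200 and 5985 in control rats 1, 3, 4 and 5, and 5033, 5269, 5151 and 4929 in SE rats 6, 8, 9 and 10. The means were 5868 ± 325 and 5096 ± 147 CPM (SD, n = 4 each), again 13.2% lower in SE and without overlap between the groups. Regions under the filter below the stretch had 8948 ± 99.3 and 8820 ± 177 CPM, with overlap.

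**Figure D1:**
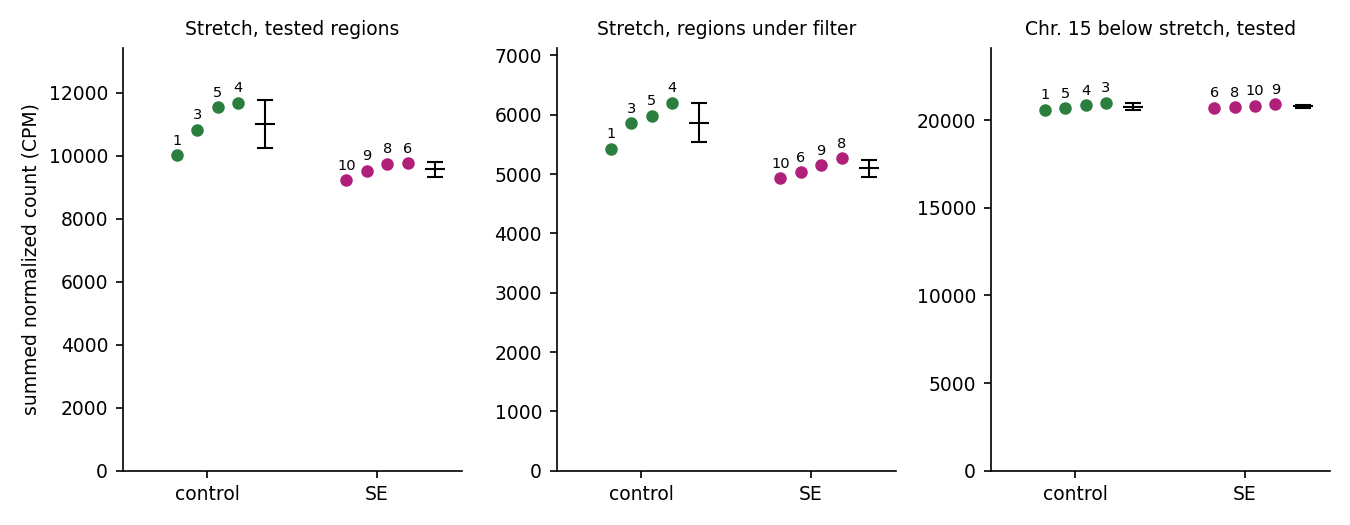
Summed normalized count (CPM, axes from 0) of each library in the tested regions of the stretch, its regions under the filter, and the tested regions of chromosome 15 below it. Points are rats with their numbers, and bars beside them are the mean ± SD of 4 rats. Control and SE rats are apart in both panels of the stretch, at 10016 to 11674 against 9224 to 9753 CPM in the tested regions, and overlap below it.

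Of the 3397 tested members, 136 (4.0%) were called lower in SE (quasi-likelihood test of edgeR, threshold of 0.01 on the unadjusted p), where the background over all 291987 tested regions was 1.07%. A single member (0.0294%), the region at the lower end, was called higher, where the background was 0.584%. In 173 members (5.09%) all 4 SE rats lay below all 4 control rats, against 1.94% over all tested regions, and in 17 (0.500%) all SE rats lay above, against 1.69%. Because the comparison that chose the stretch gave these counts, nothing is read from their distance to the background. Below the stretch, 44 of 6530 regions (0.674%) were called lower and 30 (0.459%) higher.

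The lower counts were not limited to the called members. The log2 fold change was below 0 in 2379 tested members (70.0%), with a median of -0.20 and an interquartile range from -0.48 to 0.06. Below the stretch 49.5% of tested regions were below 0 and the median was 0.0032 (interquartile range -0.23 to 0.23), and over all tested regions it was 0.0024. The median was -0.24 in the 863 members with a mean under 10 tags per library and -0.12 in the 107 with 25 or more. At an unadjusted p below 0.05, 407 of the 3397 tested members were lower and 25 higher. Over all 291987 tested regions 11605 were lower and 8552 higher. With p adjusted by Benjamini-Hochberg over the whole table, 1 member, chr15:97123790-97125104, passed 0.05. Over all tested regions 18 did. These counts too come from the comparison that chose the stretch.

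The stretch was divided into 23 windows of 2 Mb from its first base, the last one cut short by its end. The SE mean was below the control mean in 22 windows, and in 11 of them all SE rats lay below all control rats. In no window did all SE rats lie above. The log2 ratio ran from -0.44 to 0.02 with a median of -0.32. It was below -0.1 in 20 windows and below -0.3 in 12. On the same grid counted back from the first base, 16 of 30 windows below the stretch had the lower mean in SE, with a median of -0.0082, and in none did all SE rats lie below all control rats. There, 2 windows were below -0.1 and 1 was below -0.3.

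**Figure D2:**
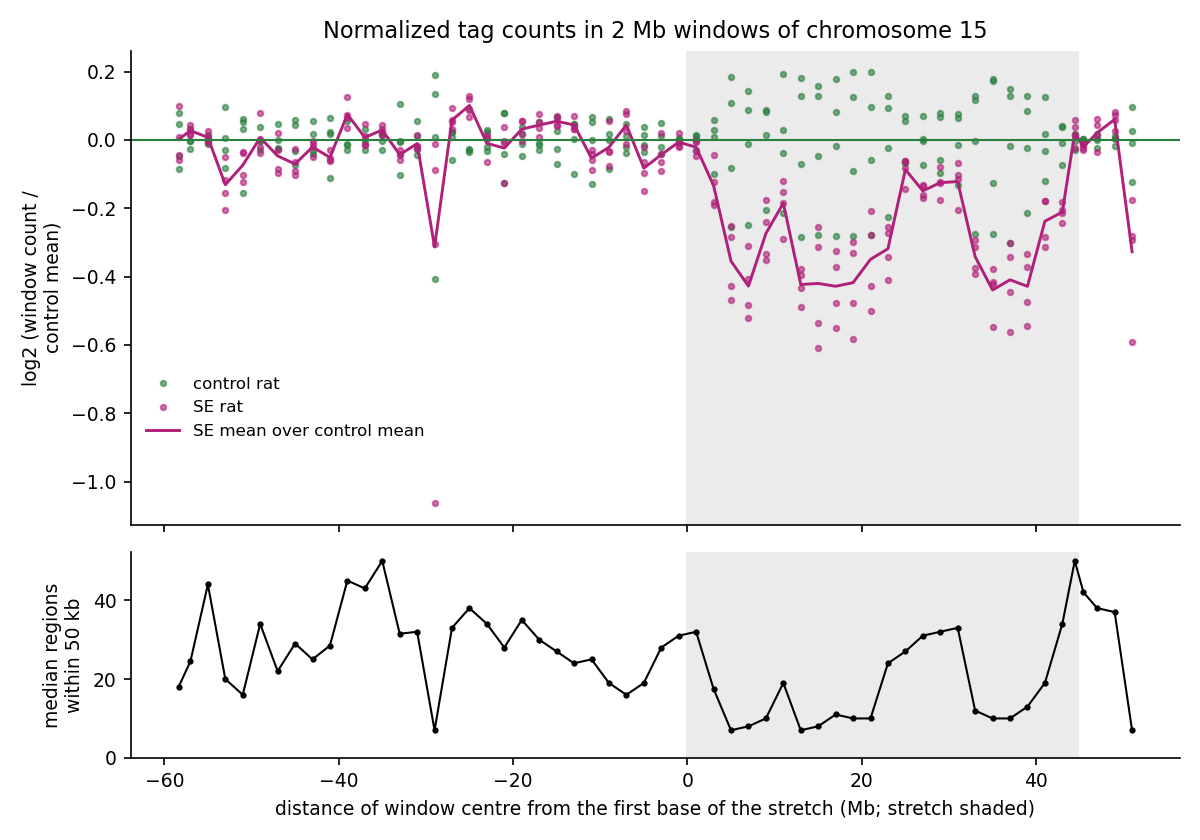
Upper panel, log2 of each rat's summed CPM in 2 Mb windows of chromosome 15 over the control mean of that window, with the ratio of group means as a line. Lower panel, the median local region density of the window's tested regions. Distances are in Mb from the first base of the stretch, which is shaded. The line lies below 0 in 22 of 23 shaded windows, in 2 broad troughs on either side of a denser middle, and near 0 at both ends.

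The windows traced 2 broad troughs. The first window, chr15:58717294-60717293, had a ratio of -0.021 and the next -0.13. The 10 windows of chr15:62717294-82717293 then ran from -0.19 to -0.43. The 4 windows of chr15:82717294-90717293 lay between -0.15 and -0.087, and the 4 of chr15:90717294-98717293 lay between -0.44 and -0.34. The last 3 windows were at -0.24, -0.21 and 0.021.

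The lowest window was chr15:92717294-94717293, with 94 tested regions of which 10 were called lower. Control rats 1, 3, 4 and 5 had 262, 290, 359 and 357 CPM there, and SE rats 6, 8, 9 and 10 had 238, 244, 237 and 217 CPM. All SE rats were below all control rats, and the control rats were the more spread (317 ± 48.7 against 234 ± 11.8 CPM, SD, n = 4 each), with a log2 ratio of -0.44. The window of the median ratio was chr15:80717294-82717293, with 11 of its 149 tested regions called lower. Control rats 1, 3, 4 and 5 had 404, 464, 516 and 504 CPM, and SE rats 6, 8, 9 and 10 had 396, 372, 391 and 355 CPM. The groups were apart there by the distance from control rat 1 to SE rat 6. The highest ratio was that of the last, short window chr15:102717294-103570243, where control rats 1, 3, 4 and 5 had 922, 921, 893 and 910 CPM and SE rats 6, 8, 9 and 10 had 935, 896, 949 and 920 CPM. The groups overlapped there (912 ± 13.8 and 925 ± 22.4 CPM, SD, n = 4 each).

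The rats kept much the same places from window to window. Control rats 3, 4 and 5 were above the mean of the 8 libraries in 22, 22 and 21 of 23 windows, and SE rats 6, 8, 9 and 10 in 2, 1, 2 and 1. Control rat 1 was above it in 3 windows and lay below the highest SE rat in 11. Control rats 3, 4 and 5 lay above all SE rats in 20 of 23 windows. Control rat 4 was the highest library in 13 windows and SE rat 10 the lowest in 14. Without control rat 1 the groups were apart in 20 of 23 windows, and without SE rat 8 in 17. Below the stretch no library stood above the mean of 8 in fewer than 12 or more than 19 of 30 windows.

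The difference moved with local region density. The 12 windows whose tested regions had a median of 15 or fewer neighbours had ratios from -0.44 to -0.27 (median -0.42), and 88 of their 1051 tested regions were called lower (8.37%). The other 11 windows ran from -0.32 to 0.021 (median -0.13), with 48 of 2346 regions called lower (2.05%). Lower calls were also more frequent at low density on the other autosomes, where 1.02% of all tested regions were called lower. With 0 to 5, 6 to 10 and 11 to 15 neighbours the shares there were 5.85, 4.20 and 2.96%. Members of the stretch in the same classes had 12.2, 6.96 and 7.28%. Over the 23 windows the log2 ratio and the log2 of the median density had a Pearson r of 0.88 and a Spearman rho of 0.79. Below the stretch the same values were 0.71 and 0.51 over 30 windows. These are descriptions across neighbouring windows of the same 8 libraries. The only window below the stretch with 15 or fewer neighbours, chr15:28717294-30717293, had 36 tested regions and a ratio of -0.31, with control rats at 111 to 168 CPM and SE rats at 70.3 to 146 CPM. The 1 such window beyond the stretch had a ratio of -0.33 over 37 tested regions, with the groups apart.

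The libraries differed in how their counts moved with density. For each library, log2(CPM + 0.5) was centred on the 8-library mean of its region, and its slope on log2(density + 1) was taken over tested regions of the autosomes other than 15. It was 0.022, -0.056, -0.11 and -0.079 in control rats 1, 3, 4 and 5, and 0.044, 0.020, 0.070 and 0.086 in SE rats 6, 8, 9 and 10. Control rat 4 had the lowest slope and the highest sum in the stretch, and SE rat 10 the highest slope and the lowest sum. The part of this slope in the lower counts was not tested. With offsets that take out each library's trend on density and mean count, the log2 ratio of the stretch was -0.14, all SE rats lay below all control rats, and 23 of 23 windows had the lower mean in SE, 11 of them without overlap. Of the 3397 tested members 74 (2.18%) were then called lower and 7 higher. The share called lower over all tested regions was 0.649% with these offsets, and the share called higher is not given.

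Medians by density class are given for the stretch and for other autosomes, with no test, since the members were selected on this comparison. In members with 5 or fewer neighbours the median log2 fold change was -0.41, against -0.30 in regions of the other autosomes with as few neighbours. With 11 to 15 neighbours the medians were -0.38 and -0.17, with 21 to 25 they were -0.18 and -0.034, and with 41 to 60 they were -0.044 and 0.081. The median of the stretch was the lower one in 9 of 9 density classes, by 0.10 to 0.21. The part of chromosome 15 below the stretch was lower than the other autosomes in 3 of the 9. Of the tested members 1197 (35.2%) had 15 or fewer neighbours, against 11.5% below the stretch and 14.6% on the other autosomes.

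**Figure D3:**
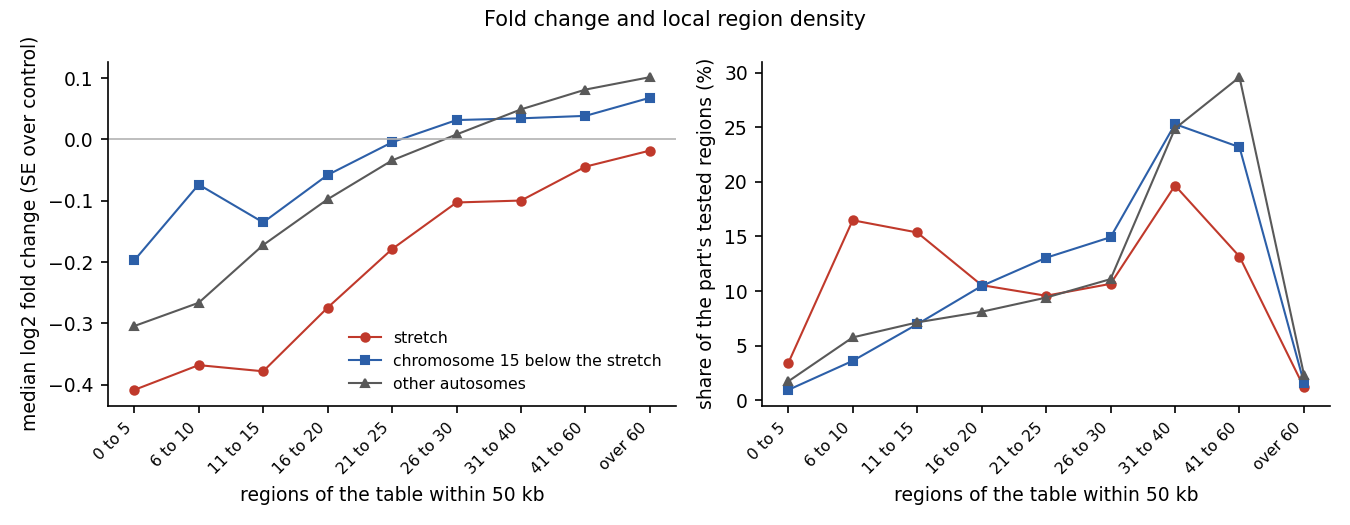
Left, the median log2 fold change (SE over control) of tested regions by local region density (other regions within 50 kb), for the stretch, chromosome 15 below it and the other autosomes. Right, the percentage of each part's tested regions in each density class. The line of the stretch is the lowest in all 9 classes, from -0.41 to -0.018, and its share of regions with 15 or fewer neighbours is 35.2% in total.

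The 136 members called lower were spread along the stretch. They were present in all 23 windows, with 1 to 11 in each. The median gap between neighbouring called members was 191 kb, the smallest 1015 bp and the largest 2.28 Mb, and 6 gaps were under 10 kb. They had a median of 12 neighbours within 50 kb, against 24 for the other tested members, and 91 of them (66.9%) had 15 or fewer, against 1106 of 3261 others (33.9%). This was not particular to the stretch. On the other autosomes 14.6% of tested regions had 15 or fewer neighbours. Of the 2855 regions called lower there, 282 had 0 to 5 neighbours, 677 had 6 to 10 and 592 had 11 to 15. In length the called members of the stretch differed little from the other tested members, with a median of 579 bp against 559 bp. Their log2 fold changes ran from -1.71 to -0.50 with a median of -1.09, and in 76 of them all SE rats lay below all control rats.

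The member chr15:97123790-97125104 is 1314 bp long, has 8 other regions within 50 kb, and lies 38.4 Mb from the first base of the stretch. Control rats 1, 3, 4 and 5 had 12.8, 24.2, 22.5 and 14.7 CPM, and SE rats 6, 8, 9 and 10 had 6.94, 4.08, 11.3 and 5.92 CPM. These values rest on 17 to 98 tags per library. All SE rats lay below all control rats, and SE rat 9 came nearest to control rat 1. The means were 18.6 ± 5.65 and 7.07 ± 3.09 CPM (SD, n = 4 each), with a log2 fold change of -1.39 ± 0.21 (SE). Its fold change lay between -1.69 and -1.15 in all 18 alternatives. The adjusted p below 0.05 is that of the edgeR fit to 8 libraries. The unadjusted p was larger with the DESeq2 Wald test and with all 10 libraries, and adjusted values there are not given.

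Its neighbours did not show a difference of that size. Within 50 kb of it, 2 other regions were tested and 0 were called. They were chr15:97081126-97081797, with a log2 fold change of -0.34 ± 0.36 (SE), and chr15:97096766-97097231, with -0.31 ± 0.39. Both errors exceeded the change. The 2 Mb window that holds the region, chr15:96717294-98717293, had 355 ± 36.6 CPM in control and 263 ± 17.5 CPM in SE rats (SD, n = 4 each), and 10 of its 107 tested regions were called lower.

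The other 9 of the 10 members with the smallest p whose groups did not overlap lay between 3.2 and 33.8 Mb from the first base. The most abundant of them, chr15:65607581-65609215, had 8.46, 12.6, 11.9 and 14.5 CPM in control rats 1, 3, 4 and 5 and 6.71, 8.40, 5.55 and 6.49 CPM in SE rats 6, 8, 9 and 10. Control rat 1 and SE rat 8 almost met, and the log2 fold change was -0.81 ± 0.21 (SE). In chr15:92557669-92558458 control rats 1, 3, 4 and 5 had 4.35, 3.95, 6.47 and 6.82 CPM and SE rats 6, 8, 9 and 10 had 1.62, 2.40, 2.17 and 2.10 CPM. The SE rats were close together and well below every control rat, with a log2 fold change of -1.38 ± 0.31. The lowest fold change of the stretch was that of chr15:61935830-61936293, at -1.71 ± 0.42, where control rats 1, 3, 4 and 5 had 2.42, 2.47, 3.62 and 4.14 CPM and SE rats 6, 8, 9 and 10 had 1.39, 0.720, 0.966 and 0.764 CPM. It rests on 3 to 20 tags per library.

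The remaining 6 of these regions had few tags as well. They were chr15:64387997-64388599, chr15:70722072-70722709, chr15:71612277-71612724, chr15:79415013-79415523, chr15:80163341-80163978 and chr15:81617430-81617870. Their control means ran from 3.08 to 4.09 CPM and their SE means from 1.04 to 1.62 CPM. Log2 fold changes were between -1.62 and -1.33. In the last of them, for example, the 8 libraries held 3 to 16 tags. Of these 10 regions 9 had 12 or fewer neighbours within 50 kb, and chr15:81617430-81617870 had 21.

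**Figure D4:**
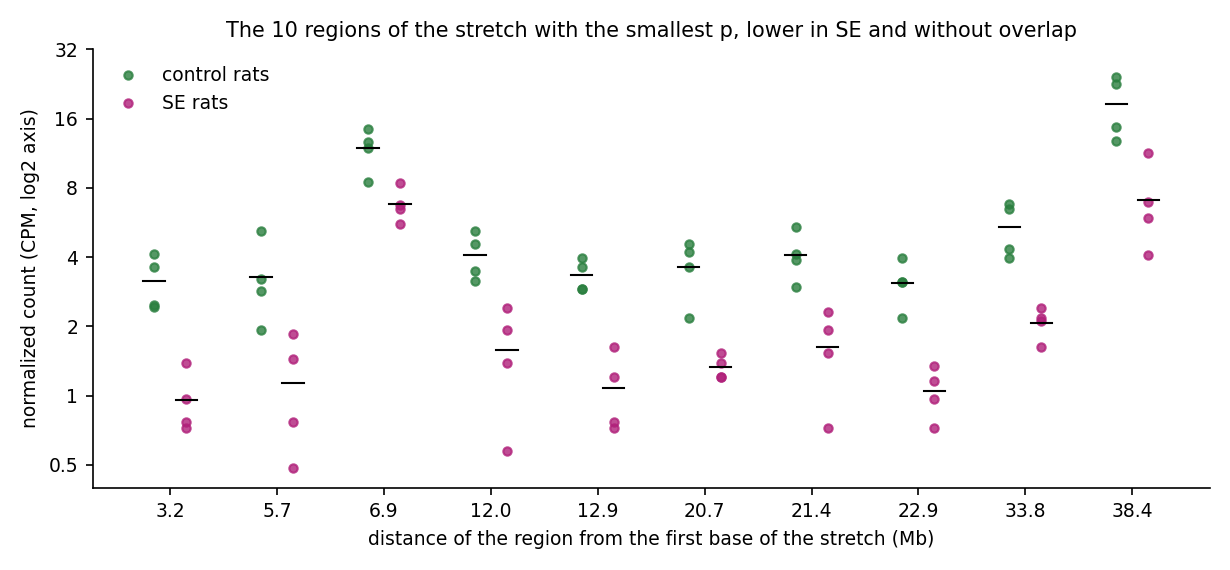
Normalized count (CPM, log2 axis) of each rat in the 10 members with the smallest p that were lower in SE without overlap of the groups, placed by their distance in Mb from the first base of the stretch. Bars are means of 4 rats. All SE points lie below all control points in each region because the regions were chosen for it, and the region at 38.4 Mb has the highest counts.

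Members just inside and just outside the threshold looked alike. The last members called lower were chr15:75921953-75922413 and chr15:99810626-99811298, with log2 fold changes of -0.99 and -0.96. The first not called were chr15:71360376-71360927 and chr15:71484940-71485610, with -1.11 and -0.95. In 1 of these 4, chr15:75921953-75922413, the groups did not overlap (control 2.47 to 4.92, SE 0.764 to 2.31 CPM).

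The regions at the ends of the stretch rested on few tags. In chr15:58717294-58718060 control rats 1, 3, 4 and 5 had 2.66, 0.989, 2.85 and 2.90 CPM and SE rats 6, 8, 9 and 10 had 4.39, 4.80, 5.07 and 3.82 CPM, from 4 to 21 tags per library. The log2 fold change was 0.92 ± 0.32 (SE), and control rat 3 was the lowest library by a wide margin. In chr15:103570244-103570737, control rats had 1.69, 1.48, 1.81 and 0.620 CPM and SE rats 3.01, 3.60, 3.62 and 1.91 CPM, from 3 to 15 tags, with a log2 fold change of 1.11 ± 0.40. All SE rats lay above all control rats in both.

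Between these ends, the 5 members nearest to a call in the higher direction were chr15:103005741-103007658, chr15:103302543-103302999, chr15:68243640-68244103, chr15:87749815-87750425 and chr15:69577216-69578393. Their log2 fold changes were 0.56, 0.98, 0.94, 0.76 and 0.60, and in the first 3 all SE rats lay above all control rats. In chr15:103302543-103302999 the groups almost met, with control rat 5 at 2.482 and SE rat 10 at 2.483 CPM. The most abundant of them, chr15:103005741-103007658, had 5.08 to 6.62 CPM in control and 7.20 to 10.6 CPM in SE rats. It lies in the last window, the only one whose ratio was above 0, as does chr15:103302543-103302999. The absence of higher calls between the ends depended on the settings. With no filter on low counts 8 members were called higher and without control rat 5 there were 6. The region at the lower end is in both counts, and the shares called higher over all tested regions there are not given.

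The members with the highest mean CPM and the longest members did not move together. In the 107 members with 25 or more tags per library as a set, the median log2 fold change was -0.12. Of these, 9 (8.41%) were called lower, against 1.82% of such regions on the other autosomes. The most abundant, chr15:60113778-60114715, had 25.4, 28.2, 31.8 and 38.1 CPM in control rats 1, 3, 4 and 5 and 17.1, 20.6, 25.1 and 24.3 CPM in SE rats 6, 8, 9 and 10. It was called lower with a log2 fold change of -0.50 ± 0.15 (SE), the smallest among the called members, and SE rat 9 all but reached control rat 1. The next, chr15:103530197-103533585, is also the longest tested member at 3388 bp and had 15.8 ± 1.17 and 15.98 ± 2.02 CPM (SD, n = 4 each), with overlap. In chr15:61501570-61503596 the means were 15.4 ± 3.30 and 13.7 ± 1.79 CPM, also with overlap. The other long members, chr15:103023958-103026532 and chr15:103384669-103387105, had log2 fold changes of -0.00013 ± 0.20 and 0.48 ± 0.20 (SE) and overlapping groups. Both lie, as does chr15:103530197-103533585, in the last window, the only one with a ratio above 0.

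The libraries labelled discarded each lay outside the range of the other libraries of their own group in the stretch. Shares are of each library's tags in the regions of the table, not of all tags sequenced. The stretch took 1.11, 1.19, 1.26 and 1.25% in control rats 1, 3, 4 and 5. In SE rats 6, 8, 9 and 10 it took 1.08, 1.08, 1.05 and 1.03%. In control rat 2 it took 1.02% (95% Wilson interval 1.01 to 1.02, counting error only), below every other library. In SE rat 7 it took 1.10% (1.09 to 1.10), just below control rat 1. SE rat 7 had 14655629 tags, the most of all, yet held 0 tags in 1028 of 7382 members (13.9%), against 25 to 93 members in the 8 libraries used and 224 in control rat 2. Its slope on density was 0.71, and that of control rat 2 was 0.082.

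**Figure D5:**
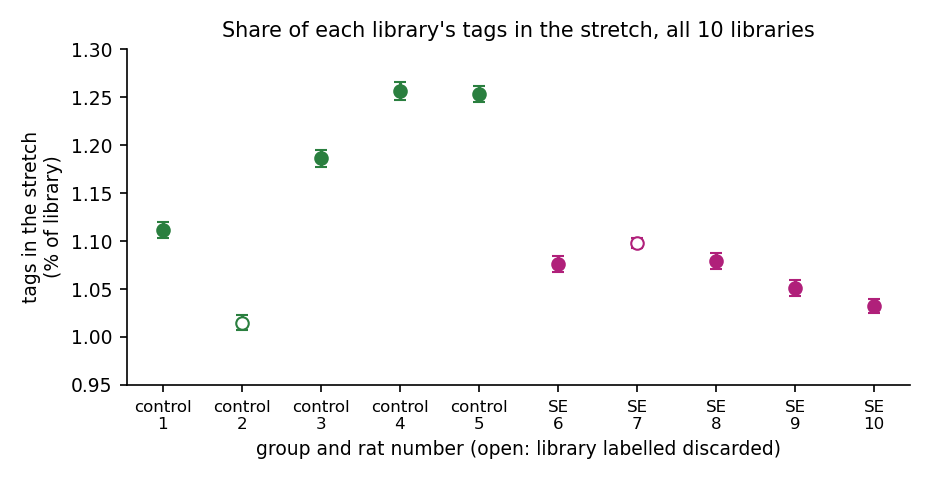
Percentage of each library's tags in the regions of the table that fell in the stretch, for all 10 rats. Bars are 95% Wilson intervals (counting error only, axis not from 0). Open points are the libraries labelled discarded. The 4 control libraries used lie at 1.11 to 1.26% and the 4 SE libraries used at 1.03 to 1.08%, with control rat 2 at 1.02% and SE rat 7 at 1.10%.

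With all 10 libraries the difference was smaller and the groups overlapped. After normalization over the 10 libraries, control rat 2 had 9043 CPM in the tested members, against 9523 to 10985 in the other control rats and 8906 to 9339 in the 4 SE rats. SE rat 7 had 8671 CPM. In 18 of 23 windows control rat 2 lay below all 4 other control rats. It lay within the range of the 4 other SE rats in 10 windows, below them in 7 and above them in 6. SE rat 7 lay below the 4 other SE rats in 14 windows and above them in 6. Its median log2 ratio to the mean of the 4 control rats used was -1.11. The log2 ratio over the stretch was -0.16 and the median log2 fold change -0.13. The SE mean, with SE rat 7 in it, was lower in 22 of 23 windows, and 4 of them were without overlap. Of 3103 tested members 20 were called lower (0.645%), where the background over all tested regions was 0.215%. A further 3 were called higher, and no background share is given for them. In the named region chr15:97123790-97125104 control rat 2 had 8.43 CPM, within the range of the SE rats, and SE rat 7 had 5.23 CPM. The most abundant member, chr15:60113778-60114715, held 622 tags in SE rat 7 and 54 in control rat 2, and its log2 fold change over 10 libraries was 0.078 instead of -0.50.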

How the data were processed

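The deposited values were tag counts per region of methyl-capture libraries, without normalization. The authors fragmented 2000 ng of hippocampal DNA per rat, captured it with MethylMiner, aligned tags of 36 bp to RN4 (BWA), called differences between all pairs of libraries (MACS), merged the differing regions (BEDTools), and counted tags without duplicates. The table so holds regions that differed between at least 1 pair of libraries.

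Regions with a summed count below the 50th percentile (70 tags over 8 libraries) were removed, and all 291987 others were fitted with edgeR (version 4.0.16, R 4.3.3; TMM, quasi-likelihood test, two-sided, condition only), after a test on simulated data. Each library is 1 rat. Called means an unadjusted p below 0.01, as in the study's methods. At a median of 12.1 tags per tested region and library, counting error limits single regions more than sums. Standard errors are the fold change over the root of F. Regions were put in 2 Mb windows by their start. The regions named were the one given by the definition of the stretch, both ends, the 10 members with the smallest p that were lower without overlap, the 5 higher ones with the smallest p, the 3 with the highest mean CPM, the 3 longest, and windows of the lowest, median and highest ratio, plus the 2 on either side of the threshold. The stretch, its members and these rules were chosen with earlier results of these data known. Alternatives were other normalizations (with limma 3.58.1 for loess), offsets on density, edgeR's exact test, DESeq2 (version 1.42.0), other filters, all 10 libraries, leaving out 1 rat at a time, and windows of 1 and 5 Mb. Sequences and genes of the regions, mRNA libraries and other models were not analysed here.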

Additional observations from a re-analysis of the deposited data

Results flagged for a closer look

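In 2 of 108 groups of 4 rats examined, over library, window and region values of the stretch, a single rat lay far from the other 3 (Dixon's gap ratio above its 95% critical value, which chance passes in about 1 in 20 groups). In chr15:58717294-58718060, the region at the lower end of the stretch, control rat 3 had 0.989 CPM, where the other control rats had 2.66 to 2.90 CPM. In chr15:103302543-103302999, SE rat 8 had 4.08 CPM, where the other SE rats had 2.48 to 2.66 CPM. Without control rat 3 the region at the lower end had a log2 fold change of 0.68 and was not called.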

How the results depend on the processing

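The lower SE sum in the stretch kept its direction in every alternative, with a log2 ratio of -0.24 to -0.14 and a median log2 fold change of -0.23 to -0.13, and the groups were apart in all but that of 10 libraries. The number of members called lower, 136, became 74 with density offsets, 47 with the DESeq2 Wald test, 35 of 630 with at least 10 counts in every library and 20 with all 10 libraries. These were 2.18, 1.38, 5.56 and 0.645% of the tested members. Over all tested regions the shares were 0.649, 0.349, 1.39 and 0.215%. With a rat left out the number ran from 86 (2.59%, all regions 0.845%) without control rat 5 to 167 (4.94%, all regions 1.32%) without control rat 1. The number called higher, 1, became 7, 0, 0 and 3 under the same 4 settings, 8 with no filter, and 0 to 6 with a rat left out: 4 without control rat 1, 4 without control rat 4, 6 without control rat 5, 2 without SE rat 6, 3 without SE rat 8, 0 without SE rat 9 and 2 without SE rat 10. The shares called higher over all tested regions under these settings are not given, so nothing is read from these numbers. With windows of 1 Mb, 43 of 45 were lower in SE, and with 5 Mb 9 of 9. The difference in tag density ran from -0.035 to 0.013 with a rat left out and turned above 0 without SE rat 6, 8, 9 or 10.

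Of 429 values of the 26 named regions, 358 kept direction and call, 40 lost the call, 15 gained one and 16 changed sign. The sign changes were those of regions near 0 and of 1 other. The region chr15:103023958-103026532 (-0.00013) had 0.013 with library totals, 0.016 with the upper quartile, 0.00061 with DESeq2 size factors, 0.0016 with the DESeq2 Wald test, 0.013 with no filter, 0.49 with all 10 libraries, and -0.13 to 0.18 with a rat left out. The region chr15:103530197-103533585 (0.015) had -0.048 with density offsets, -0.0089 with at least 10 counts in every library, and -0.039 to 0.090 with a rat left out. The region chr15:60113778-60114715 had 0.078 with all 10 libraries. The cause of these changes was not tested. The regions that changed sign held 24 to 51, 56 to 80 and 74 to 184 tags per library used, in the order given here. Other named regions held as few as 2 tags in a library, and single regions carry more counting error than window sums. No paired analysis was possible because no rat number occurs in both groups.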
